A study of Mus musculus with 18 samples.

Results

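The kinases and adaptors that stand around the CBM complex were followed through 10 genes in mouse regulatory T cells. They are Prkcq (PKC-theta), Pdpk1 (PDK1), Ikbkb (IKK-beta), Ikbkg (NEMO), Chuk (IKK-alpha), Casp8 (caspase-8), Rbck1 (HOIL-1), Traf6, Map3k7 (TAK1) and Tab2. They were taken by name. All 10 are among the 23420 genes of the count table, and all 10 passed the filter on low counts that left 10630 genes for testing. The labels give 3 genotypes, FCre x C1+/+, FCre x C1fl/+ and FCre x C1fl/fl, called +/+, fl/+ and fl/fl below. FCre stands in the name of every genotype, so the +/+ group carries it too and no group lacks it. The sources used here do not state what drives FCre, how old the mice were, their sex, or how cells were gated in the sort. Each genotype was measured in resting and in effector cells with 3 libraries per group, 18 in all, numbered 1 to 3 under the label batch. Nothing says that libraries of a group came from separate animals, so p-values measure only the spread between these samples, which may be technical.

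The CBM complex joins the antigen receptor of lymphocytes to the transcription factor NF-kB. After the T cell receptor is engaged, PDK1 and PKC-theta act upstream and a scaffold protein assembles with the adaptor Bcl10 and the protease Malt1. Traf6, a ubiquitin ligase, and the linear ubiquitin ligase LUBAC, of which HOIL-1 is a subunit, then build chains on which TAK1 with its partner TAB2 and the IKK complex are brought together, and IKK-beta phosphorylates the inhibitor of NF-kB. In regulatory T cells this path is known for its role in their development and in the gain of effector properties.

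The libraries held 1658073 to 5756903 expected counts, and the defining genes Foxp3 (211 to 479 CPM, counts scaled to library size), Il2ra (244 to 374 CPM), Cd3e (519 to 718 CPM) and Cd4 (502 to 879 CPM) were present in all 18. Marker genes of B cells summed to 9.39 to 74.6 CPM per library, those of CD8 T cells to 11.1 to 29.2 CPM, those of NK cells to 0 to 23.7 CPM and those of myeloid cells to 3.94 to 12.5 CPM. Replicates 2 and 3 of fl/fl effector cells stood apart from the other effector libraries in markers of state. Of the 5 markers of resting cells (Ccr7, Lef1, Bcl2, Satb1 and S1pr1) the sum was 2732 to 3140.2 CPM in all resting libraries and 900.1 to 1615 CPM in the +/+ and fl/+ effector libraries. In fl/fl effector libraries it was 1558 CPM in replicate 1, 2375 CPM in replicate 2 and 2422 CPM in replicate 3. The 6 effector markers (Icos, Klrg1, Prdm1, Tnfrsf9, Itgae and Tigit) summed to 676 to 1378 CPM in +/+ and fl/+ effector libraries, to 778, 240 and 325 CPM in fl/fl effector replicates 1, 2 and 3, and to 104 to 225 CPM in resting libraries. Replicates 2 and 3 of fl/fl effector cells thus held more resting-marker RNA and less effector-marker RNA than any other effector library. In sorted bulk samples fewer cells of a type and less RNA per cell cannot be told apart.

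The region before the start site is shown for 3 members, Casp8, which was called lower in effector cells, and Traf6 and Tab2, which were not called. Theirs are the windows in which no exon is annotated. The set of RefSeq windows used here (GRCm38.p6) covers 15 start sites for 9 of the 10 genes and holds none for Ikbkb. The 250 bases before the start are written 5′ to 3′ on the strand of the gene, and capitals mark a match, on either strand, to any of 6 short motifs.
Casp8, chr1:58802252-58802501, plus strand: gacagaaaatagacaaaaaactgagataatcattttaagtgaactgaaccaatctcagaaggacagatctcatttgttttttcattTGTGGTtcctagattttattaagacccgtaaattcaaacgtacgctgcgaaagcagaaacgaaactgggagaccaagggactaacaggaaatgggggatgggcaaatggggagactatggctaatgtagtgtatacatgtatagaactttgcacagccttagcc
Traf6, chr2:101678170-101678419, plus strand: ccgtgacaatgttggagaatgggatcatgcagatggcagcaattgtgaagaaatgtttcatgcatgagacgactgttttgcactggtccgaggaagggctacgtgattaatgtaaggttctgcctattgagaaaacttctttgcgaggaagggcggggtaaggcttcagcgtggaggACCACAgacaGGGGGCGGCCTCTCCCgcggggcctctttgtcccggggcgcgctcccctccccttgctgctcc
Tab2, chr10:7953066-7953315, minus strand: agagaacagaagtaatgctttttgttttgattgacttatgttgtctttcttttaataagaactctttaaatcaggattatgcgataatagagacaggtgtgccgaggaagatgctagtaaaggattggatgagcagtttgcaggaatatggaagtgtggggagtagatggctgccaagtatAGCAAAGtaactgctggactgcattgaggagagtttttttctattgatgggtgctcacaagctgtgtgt

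In the Casp8 window the capitals are the RUNX motif TGTGGT. The Casp8 and Tab2 windows shown lie inside the genes as GENCODE annotates them, and RefSeq has another Tab2 start whose window is not shown. In Traf6 they are the RUNX motif on the other strand and a stretch in which 2 matches to the NF-kB motif (a run of G, a gap of any bases and a run of C) overlap, and in Tab2 the TCF/LEF motif CTTTGNT on the other strand. Over 32851 RefSeq windows of 300 bases, which hold 50 bases after the start as well, RUNX was found in 16.8%, NF-kB in 50.8% and TCF/LEF in 18.6%. The other motifs were AP-1 TGANTCA (7.81%), ETS CCGGAAG (8.86%) and forkhead TAAACA (13.4%). Among the 15 windows of the members, NF-kB was matched in 8, AP-1 and RUNX in 3 each, ETS and forkhead in 2 each and TCF/LEF in 1. The Prkcq window held none of the 6 and had a GC content of 73%, against 42% for Casp8. That Prkcq window also lies inside the gene, and all 250 bases before its start are annotated as exon. These are matches of letters and not sites of binding.

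Per length of transcript, Prkcq and Rbck1 were the most abundant of the 10 genes and Map3k7 the least. The mean over 18 libraries was 129 FPKM for Prkcq, 118 FPKM for Rbck1, 91.5 FPKM for Casp8 and 60.6 FPKM for Ikbkb. Pdpk1 followed with 19.2 FPKM, then Traf6 with 16.0, Tab2 with 11.9, Chuk with 11.05, Ikbkg with 10.95 and Map3k7 with 3.28 FPKM. The mRNA of the catalytic IKK-beta thus stood above those of the other IKK subunits. The ranges of neighbours in this order did not overlap in any of the 6 groups between Casp8 and Ikbkb, Ikbkb and Pdpk1, and Ikbkg and Map3k7. They overlapped in 5 of 6 groups between Chuk and Ikbkg and in 4 of 6 between Tab2 and Chuk and between Pdpk1 and Traf6, so those neighbours are not ordered beyond their spread. Rbck1 and Casp8 overlapped in the 3 resting groups, and Traf6 and Tab2 in +/+ and fl/+ effector cells. By group means Prkcq ranked above Rbck1 in the 3 resting groups and in fl/fl effector cells, where their ranges overlapped. In +/+ effector cells Rbck1 was at 117 ± 6.91 FPKM (SD, n = 3) and Prkcq at 105 ± 6.41, and in fl/+ effector cells at 123 ± 1.40 and 102 ± 9.62.

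**Figure D1:**
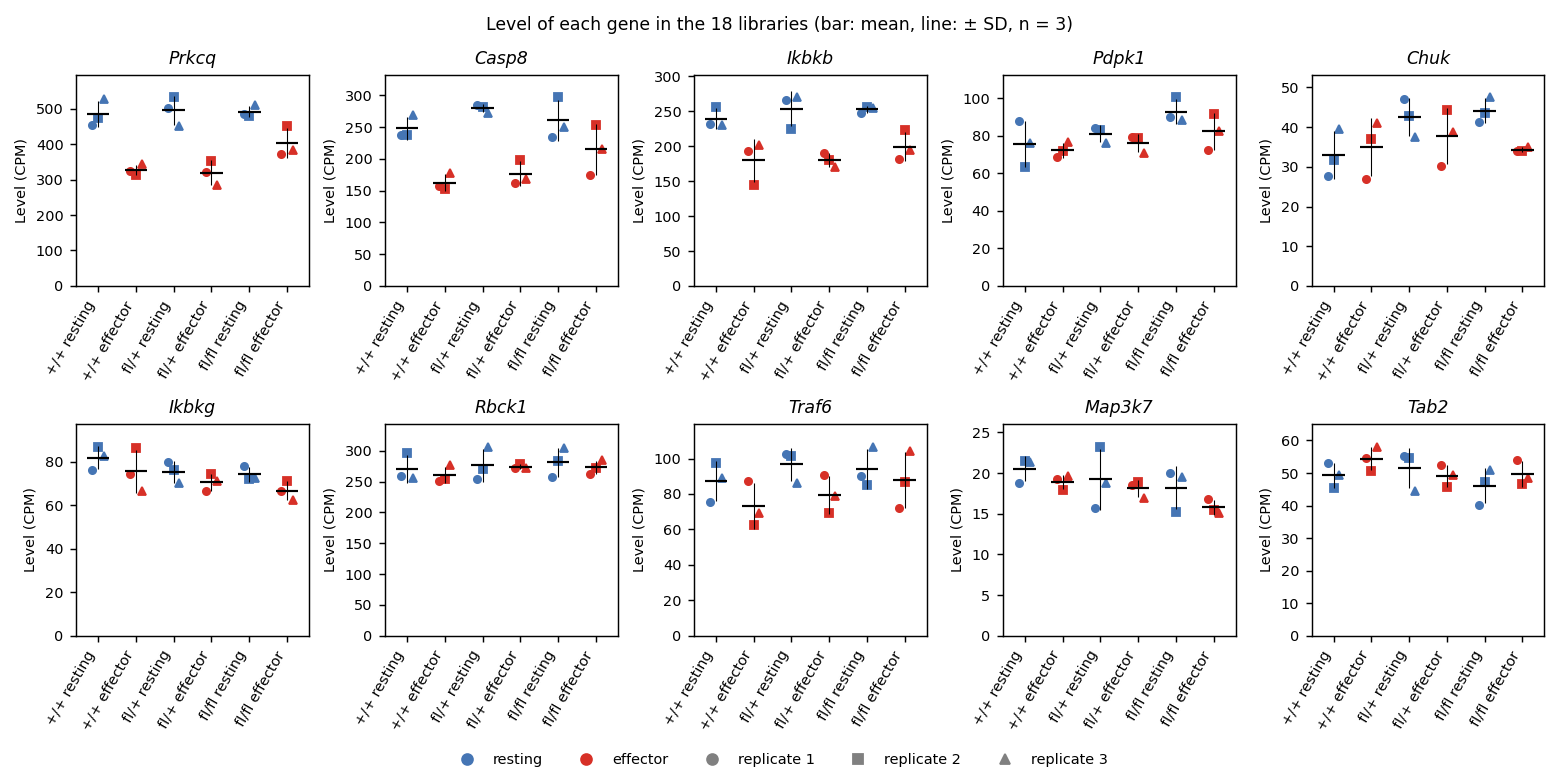
Level in CPM (vertical axis, from 0) of each of the 10 genes in the 18 libraries, by group (horizontal axis), with points for libraries, a bar for the mean and a line for ± SD (n = 3). Prkcq, Casp8 and Ikbkb are lower in the effector groups of +/+ and fl/+ with no overlap, while Rbck1 stays between 251 and 306 CPM.

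Between resting and effector cells 3 of the 10 genes fell in +/+ and the same 3 fell in fl/+, Prkcq, Casp8 and Ikbkb, and none rose. Among all 10630 genes 6.5% were called lower in +/+ and 6.58% in fl/+ (16% and 16.3% in either direction), where called means an adjusted p under 0.05 in edgeR's quasi-likelihood test with Benjamini-Hochberg adjustment over all tested genes. In fl/fl 0 of 10 were called, against 6.34% of all genes and 1.33% called lower, and 0 were called by DESeq2 or limma-voom. At an unadjusted p under 0.05 there were 4 of the 10, and the share of all genes at that threshold is not given here. The median log2 change of the 10 genes was -0.11 in +/+, -0.15 in fl/+ and -0.19 in fl/fl, and that of all tested genes -0.01 in each. With resting and effector libraries paired by genotype and number, Prkcq, Casp8 and Ikbkb were called lower in fl/fl as well, against 3.49% of all genes in that fit.

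Of the 2 kinases at the head of the path, Prkcq changed and Pdpk1 did not pass the test. Prkcq encodes PKC-theta, the PKC isoform that acts at the T cell contact (11172108 to 11301222 on chromosome 2, plus strand). Its level in +/+ was 454, 473 and 527 CPM in resting libraries and 325, 313 and 343 CPM in effector libraries of replicates 1, 2 and 3. The groups did not overlap, and Prkcq fell by 0.57 on the log2 scale (SE 0.10, adjusted p = 0.000479), which is 32.5% less. In fl/+ it was 502, 532 and 450 CPM in resting and 323, 352 and 284 CPM in effector libraries. There it fell by 0.63 (SE 0.10, adjusted p = 0.000175), again with no overlap. In fl/fl the resting libraries were at 485, 480 and 511 CPM and the effector libraries at 371, 451 and 384 CPM. These groups did not overlap either, but the smaller change of -0.29 (SE 0.10, adjusted p = 0.0871) did not pass, and did in the paired fit (-0.29, SE 0.08, adjusted p = 0.0246). Leaving out fl/fl effector replicate 2, the highest of the 3, gave -0.38 (adjusted p = 0.0304). Effector libraries were lower without overlap in 15.7%, 16.1% and 9.98% of all genes in +/+, fl/+ and fl/fl.

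Pdpk1 encodes PDK1, the kinase that phosphorylates the activation loop of PKC-theta and AKT (24073680 to 24150924 on chromosome 17, minus strand). Its level ran from 63.2 to 101 CPM over all libraries. In +/+ it was 87.8, 63.2 and 76.2 CPM in resting and 68.7, 71.9 and 76.5 CPM in effector libraries, and the groups overlapped. The changes were -0.08 in +/+ (95% interval -0.33 to 0.18), -0.09 in fl/+ (-0.34 to 0.16) and -0.18 in fl/fl (-0.43 to 0.07), none of them called. These intervals do not exclude a moderate fall.

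Among the IKK subunits only the mRNA of the catalytic IKK-beta passed the test. Ikbkb (22659212 to 22706589 on chromosome 8, minus strand) was at 231, 257 and 230.2 CPM in +/+ resting and at 193, 145 and 202 CPM in +/+ effector libraries. It fell by 0.40 (SE 0.11, adjusted p = 0.0183), with the low value of effector replicate 2 the farthest from the others. In fl/+ it was 266, 225 and 270.0 CPM in resting and 189.7, 179.7 and 171 CPM in effector libraries and fell by 0.49 (SE 0.11, adjusted p = 0.00423). In fl/fl it was 247, 256 and 254 CPM in resting and 181, 222 and 195 CPM in effector libraries. The groups did not overlap, with a change of -0.34 (SE 0.11, adjusted p = 0.0813) that was -0.35 (SE 0.11, adjusted p = 0.0445) in the paired fit. The +/+ call is the less firm of the Ikbkb calls. Without +/+ effector replicate 2 the change was -0.27 (adjusted p = 0.122) and without +/+ resting replicate 2 it was -0.34 (adjusted p = 0.0937). The fl/fl change was called without +/+ effector replicate 2 (-0.34, adjusted p = 0.0458) and without fl/fl effector replicate 2 (-0.43, adjusted p = 0.0395).

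Chuk encodes IKK-alpha, the catalytic subunit that also serves the noncanonical NF-kB path (44073335 to 44107480 on chromosome 19, minus strand). It was measured on 58 to 219 counts per library. Its level was 27.7, 31.6 and 39.5 CPM in +/+ resting and 26.8, 37.0 and 41.0 CPM in +/+ effector libraries, nearly the same range. In fl/fl it was 41.2, 43.7 and 47.5 CPM in resting and 33.9, 33.9 and 35.1 CPM in effector libraries, which did not overlap. The change was 0.07 in +/+ (SE 0.18, adjusted p = 0.839), -0.19 in fl/+ (SE 0.17) and -0.37 in fl/fl (SE 0.17, adjusted p = 0.256). Ikbkg encodes NEMO, the regulatory subunit that binds linear ubiquitin (74393290 to 74453854 on chromosome X, plus strand). Its level was 62.3 to 86.7 CPM over all libraries and its changes between states were -0.12, -0.10 and -0.15 in +/+, fl/+ and fl/fl, with adjusted p values of 0.527, 0.609 and 0.505. In fl/fl its effector libraries (62.3 to 71.1 CPM) lay below the resting ones (71.8 to 78.1 CPM), as in 9.98% of all genes. Ikbkg shares 418 exonic bases with G6pdx on the other strand, and the strand setting of the counting is not given. Its counts were also fractional in 18 of 18 libraries, so its level is uncertain. Fractional counts were not particular to Ikbkg, since those of Casp8 were fractional in 17 libraries and those of Prkcq and Ikbkb in 11 each.

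Casp8 had the largest estimated fall of the 10 genes in +/+ and fl/+, close to that of Prkcq. It encodes caspase-8, the initiator caspase of death receptors, which also takes part in NF-kB activation by the antigen receptor (58795374 to 58847503 on chromosome 1, plus strand; its start region is printed above). Its level in +/+ was 238, 238 and 269 CPM in resting and 158, 152 and 179 CPM in effector libraries. It fell by 0.61 (SE 0.12, adjusted p = 0.00201), or by 34.3%, with no overlap. In fl/+ it was 285, 282 and 273 CPM in resting and 162, 199 and 169 CPM in effector libraries and fell by 0.67 (SE 0.12, adjusted p = 0.000813). In fl/fl it was 234, 297 and 251 CPM in resting and 175, 254 and 216 CPM in effector libraries. Here the groups overlapped, since effector replicate 2 was above 2 of the resting libraries. The change of -0.28 (SE 0.12, adjusted p = 0.211) became -0.29 (SE 0.08, adjusted p = 0.0340) when the libraries were paired, and -0.43 (adjusted p = 0.0455) without fl/fl effector replicate 2.

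Rbck1, the HOIL-1 subunit of LUBAC and itself a substrate of Malt1, was the steadiest of the 10 genes (152316334 to 152332653 on chromosome 2, minus strand). Over 18 libraries its level was 251 to 306 CPM, with a coefficient of variation of 6.28%, against 19.6% for Prkcq and 21.8% for Casp8. The changes between states were -0.05 in +/+ (95% interval -0.24 to 0.14), -0.01 in fl/+ (-0.20 to 0.18) and -0.05 in fl/fl (-0.24 to 0.15). A change as large as that of Prkcq in +/+ lies outside each of these intervals.

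The ubiquitin ligase Traf6 and the TAK1 pair were called in no genotype. Traf6 (101678429 to 101701669 on chromosome 2, plus strand) was at 75.6, 97.7 and 88.8 CPM in +/+ resting and at 87.5, 62.4 and 69.1 CPM in +/+ effector libraries, with overlap. In fl/+ it was 103, 102 and 85.9 CPM in resting and 90.5, 69.1 and 79.1 CPM in effector libraries, and in fl/fl 90.4, 84.8 and 107 CPM against 72.3, 86.9 and 104 CPM. The mean change over the 3 genotypes was -0.21 (SE 0.09, adjusted p = 0.0734), and adjusted p = 0.0461 in the paired fit, which called 17.8% of all genes lower. Without +/+ effector replicate 1 it was -0.26 (adjusted p = 0.0346), without fl/+ effector replicate 1 it was -0.24 (just under the threshold) and without fl/fl effector replicate 3 it was -0.25 (adjusted p = 0.0321). Map3k7, the kinase TAK1 (31964097 to 32023467 on chromosome 4, plus strand), was the scarcest, at 15.1 to 23.2 CPM from 25 to 112 counts per library. Its changes were -0.11, -0.07 and -0.20 in +/+, fl/+ and fl/fl with adjusted p values of 0.763, 0.939 and 0.602. Tab2, which ties TAK1 to ubiquitin chains (7905653 to 7956230 on chromosome 10, minus strand), was at 40.3 to 58.0 CPM. Its change was 0.14 in +/+ (SE 0.13, adjusted p = 0.503), -0.08 in fl/+ (SE 0.12, adjusted p = 0.747) and 0.12 in fl/fl (SE 0.13, adjusted p = 0.681).

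**Figure D2:**
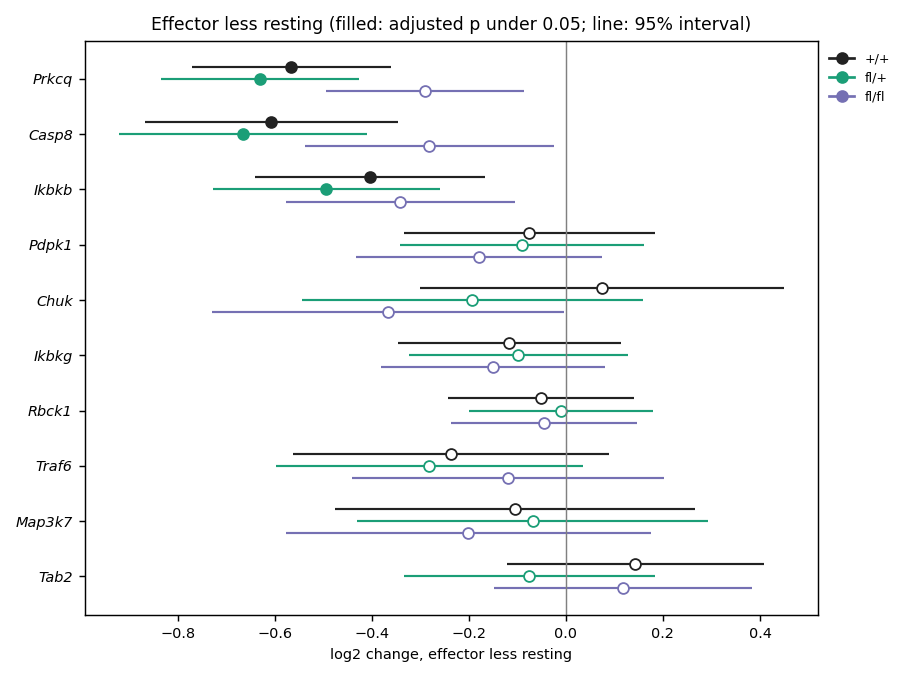
log2 change from resting to effector cells (horizontal axis) of each gene (vertical axis) in the 3 genotypes, with 95% intervals as lines and filled points for an adjusted p under 0.05. Prkcq (-0.57), Casp8 (-0.61) and Ikbkb (-0.40) are filled for +/+ and the same genes for fl/+, and no point is filled for fl/fl.

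Averaged over the 3 genotypes the change between states was -0.50 for Prkcq (SE 0.06, adjusted p = 1.2e-06), -0.52 for Casp8 (SE 0.07, adjusted p = 1.1e-05) and -0.41 for Ikbkb (SE 0.07, adjusted p = 5.09e-05). The other 7 genes were not called in that average, where 15.4% of all genes were called lower and 32.9% in either direction. Each of the 9 pairs of a resting and an effector library with the same genotype and number was lower in the effector library for Prkcq, Casp8 and Ikbkb. The steps ran from -0.09 (fl/fl replicate 2) to -0.66 for Prkcq, from -0.22 to -0.81 for Casp8 and from -0.19 to -0.82 for Ikbkb. For the other members the count was 8 of 9 pairs for Ikbkg, 7 for Pdpk1 and Traf6, 6 for Map3k7, 5 for Chuk and Rbck1 and 4 for Tab2. The pairs show a common direction for 3 genes and mixed directions for most of the rest. Those 3 were called from these same libraries, so the pairs are a description and no added support. The share of all genes lower in 9 of 9 pairs is not given here.

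**Figure D3:**
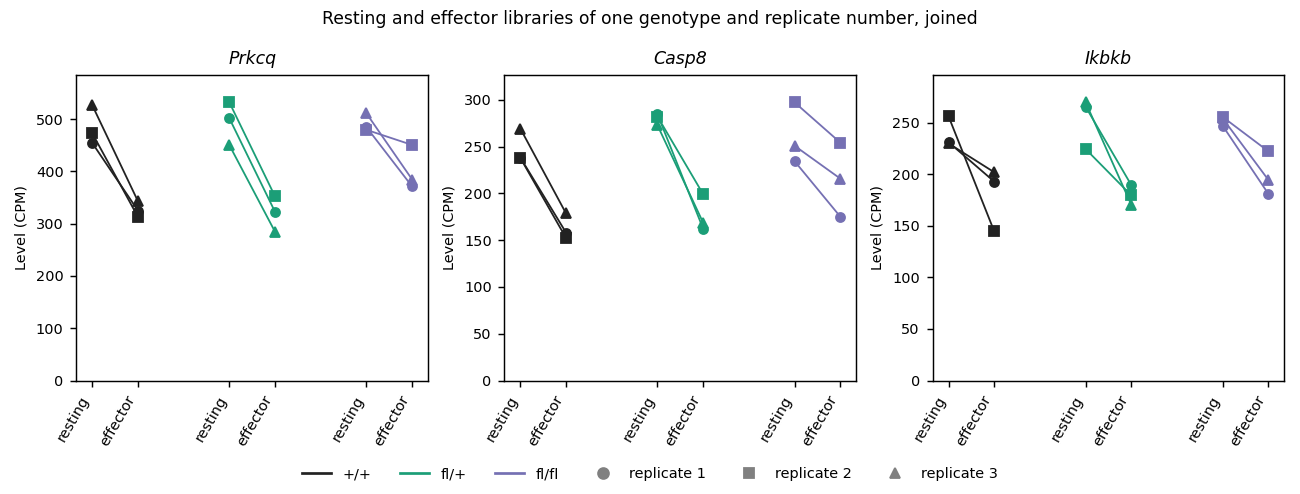
Level in CPM (vertical axis, from 0) of Prkcq, Casp8 and Ikbkb in the resting and the effector library of the same genotype and replicate number, joined by a line. All 9 lines fall for each gene, and the Prkcq line of fl/fl replicate 2 is nearly flat (480 to 451 CPM).

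Prkcq and Casp8 also varied together from library to library. Pearson's r of their log2 CPM over the 18 libraries was 0.93, and 0.65 after the mean of each group was removed. For Casp8 with Ikbkb r was 0.86 and 0.42, and for Prkcq with Ikbkb 0.86 and 0.27. The points share depth and scaling, and the first value of each pair also holds the difference between states, so these are descriptions. Among the 6410 genes with mean levels of 20 CPM or more, the profiles most like Prkcq were those of Fam65b (r = 0.98), Satb1 (0.97) and Ablim1 (0.97). Those most like Casp8 were Eif2c2 (0.97), Il4ra (0.96), the interleukin-4 receptor chain, and Ecm1 (0.96), and those most like Ikbkb were Whsc1l1 (0.93), Dusp11 (0.93) and Stk38 (0.92). By Spearman's rank correlation Satb1 was the nearest to Prkcq, Fam65b was in place 22 and Ablim1 in place 27. For Casp8, Ecm1, Il4ra and Eif2c2 were in places 2, 3 and 5. For Ikbkb, Dusp11 was in place 2, Whsc1l1 in place 8 and Stk38 in place 114.

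Between genotypes none of the 10 genes was called in any of the 7 contrasts. Of all genes 0.696% were called between fl/fl and +/+ in resting cells, 2.81% in effector cells (1.17% higher in fl/fl) and 2.97% over both states. DESeq2 and limma-voom called 0 of the 10 as well. At an unadjusted p under 0.05 edgeR gave 2 of the 10 in resting cells, 2 in effector cells and 3 over both states. The share of all genes at that threshold is not given here, so whether these counts exceed it cannot be judged. In resting cells Prkcq (0.02, 95% interval -0.18 to 0.22), Casp8 (0.07, -0.19 to 0.33) and Ikbkb (0.08, -0.16 to 0.31) differed little between fl/fl and +/+. Chuk was 0.43 higher in fl/fl resting cells (SE 0.17, unadjusted p = 0.0221, adjusted p = 0.468) and Pdpk1 0.29 higher (SE 0.12, unadjusted p = 0.0284, adjusted p = 0.516), and neither is a call. For both the 3 fl/fl resting libraries lay above the 3 of +/+, as in 6.11% of all genes. For fl/+ against +/+ the sizes ran from -0.11 to 0.39 in resting and from -0.15 to 0.13 in effector cells, where 0.0847% and 0.00941% of all genes were called. Of these only Chuk in resting cells had an unadjusted p under 0.05 (0.39, adjusted p = 0.723).

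In effector cells Casp8 and Prkcq had the lowest p values of the 10 genes. Casp8 was 0.40 higher in fl/fl than in +/+ (SE 0.12, unadjusted p = 0.00502, adjusted p = 0.0894), at 215 ± 39.6 against 163 ± 13.8 CPM (SD, n = 3). It was called with the replicate number as a block (0.38, SE 0.11, adjusted p = 0.0499), in a fit that called 2.3% of all genes higher. It was also called with no filter on low counts (0.40, SE 0.12, adjusted p = 0.0241), where the share of all genes called is not given here. Without fl/fl effector replicate 1 the Casp8 difference was 0.53 (adjusted p = 0.0136), and averaged over both states it was 0.23 (adjusted p = 0.185) with that library and 0.30 (adjusted p = 0.0363) without it. Without fl/fl effector replicate 2 the same differences were 0.25 (adjusted p = 0.452) and 0.16 (adjusted p = 0.461). Prkcq was 0.30 higher (SE 0.10, unadjusted p = 0.00685, adjusted p = 0.107), at 402 ± 42.5 against 327 ± 15.1 CPM, and the groups did not overlap, as in 10.3% of all genes. Against fl/+ the differences were 0.33 for Prkcq (adjusted p = 0.125) and 0.28 for Casp8 (adjusted p = 0.366), with 0.677% of all genes called, and in resting cells 0.0282%. These comparisons share the fl/fl effector libraries.

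Within fl/fl effector cells the order of the libraries was the same for Prkcq, Casp8 and Ikbkb. Replicate 2 was the highest (451, 254 and 222 CPM) and replicate 1 the lowest (371, 175 and 181 CPM). The resting markers were also lowest in replicate 1 (1558 CPM) but highest in replicate 3 (2422 CPM, against 2375 CPM in replicate 2). In replicate 1, the library whose marker sums were nearest to those of the other genotypes, Casp8 at 175 CPM lay inside the range of +/+ effector cells (152 to 179 CPM), and Prkcq at 371 CPM lay above it (313 to 343 CPM). Proliferation markers summed to 287 to 407 CPM in fl/fl and to 107 to 274 CPM in +/+ effector libraries. The part of these markers in the differences of Prkcq and Casp8 was not tested.

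**Figure D4:**
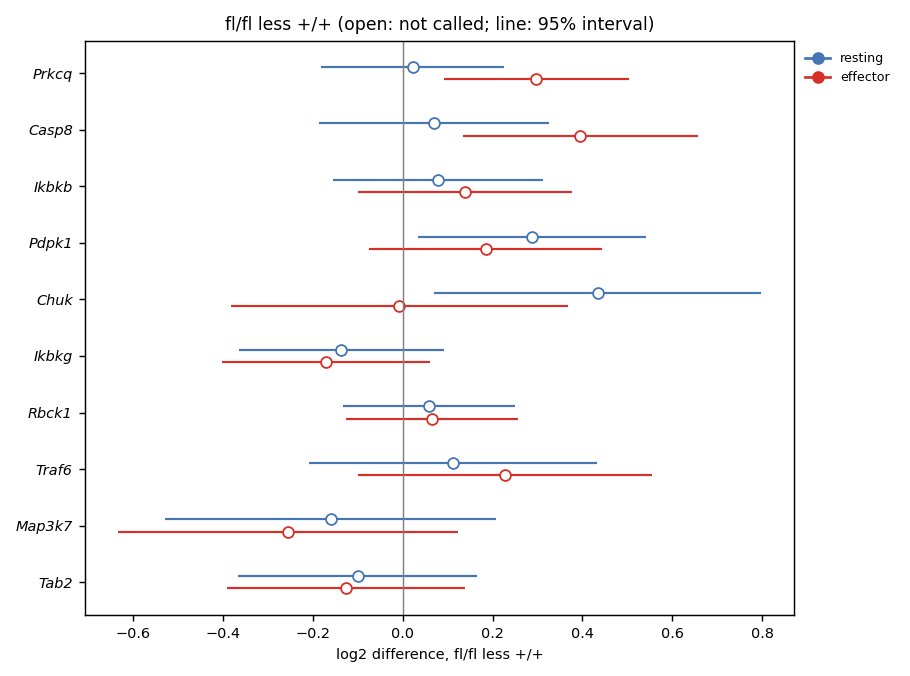
log2 difference of fl/fl less +/+ (horizontal axis) for each gene (vertical axis) in resting and effector cells, with 95% intervals as lines and open points because no gene was called. In effector cells Casp8 (0.40) and Prkcq (0.30) have intervals above 0, and in resting cells Chuk (0.43) and Pdpk1 (0.29).

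Whether the change between states differs by genotype is a test of its own, and none of the 10 genes passed it. For fl/fl less +/+ the difference of the changes was 0.28 for Prkcq (SE 0.14, unadjusted p = 0.0604), 0.33 for Casp8 (SE 0.17, unadjusted p = 0.0781) and -0.44 for Chuk (SE 0.25, unadjusted p = 0.0932), with adjusted p values of 0.579, 0.609 and 0.634. No member was under an unadjusted p of 0.05 or called by DESeq2 or limma-voom. The test called 0% of all genes in edgeR (953 at an unadjusted p under 0.05), 0 in limma-voom and 15 in DESeq2. In the paired fit it called 1.13% of all genes and none of the 10. So the calls in +/+ and fl/+ and their absence in fl/fl do not show that the changes differ. For fl/+ less +/+ the sizes were between -0.27 and 0.04, with 0.0188% of all genes called.

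The other genes of the path came from 8 lists with 52 genes, of which 51 were tested and Otulin is not in the table. In +/+ 5 of the 51 rose and 3 fell, in fl/+ 5 rose and 2 fell and in fl/fl 1 rose and 0 fell. Of all genes 9.49%, 9.72% and 5.01% were called higher and 6.5%, 6.58% and 1.33% lower. The 51 together thus stood near or below the shares of all genes. Averaged over the 3 genotypes 9 rose and 7 fell, near the 17.5% and 15.4% of all genes. Of these 16 genes of the lists, 7 were called only in the average, where Tnip2 (0.37), Ube2n (0.21) and Traf2 (0.18) were higher and Map3k14 (-0.39), Cflar (-0.28), Tax1bp1 (-0.19) and Cdc37 (-0.15) lower. The calls of Ube2n, Cdc37, Traf2 and Map3k14 were lost without any of 12, 10, 10 and 7 libraries, with adjusted p up to 0.108, 0.0973, 0.0892 and 0.0755. The median change of the 51 was -0.01 in +/+, 0.04 in fl/+ and -0.02 in fl/fl. In the core of the complex Malt1 rose (1.33 in +/+, 0.98 in fl/+) and Bcl10 was not called (0.20 in both). The change of Malt1 was 0.36 in fl/fl (adjusted p = 0.397). Its interaction, -0.97 (adjusted p = 0.369), was called in the paired fit at -1.01 (adjusted p = 0.0217), in which 1.13% of all genes were called. Between fl/fl and +/+ effector cells Malt1 was at 105 against 169 CPM (-0.68, SE 0.21, adjusted p = 0.0852). This difference was called in DESeq2 (-0.69, adjusted p = 0.0373) and without fl/+ effector replicate 2 (adjusted p = 0.0480). With no filter on low counts it was of like size (-0.67) with a smaller SE (0.13, adjusted p = 3.96e-05). The share of all genes called without the filter is not given here. Without fl/fl effector replicate 2 the Malt1 difference was -0.53 (adjusted p = 0.369). The protease of the complex thus moved opposite to the PKC isoform upstream of it in +/+ and fl/+.

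Of 10 PKC isoforms and AKT kinases Prkca, a conventional PKC, rose in +/+ by 0.77 (SE 0.14, adjusted p = 0.000688) and in fl/+ by 0.41 (adjusted p = 0.0466), where Prkcq fell. Prkca was also the only gene of the 51 called between fl/fl and +/+ effector cells, at 110 against 161 CPM (-0.55, SE 0.14, adjusted p = 0.0371). That call was lost when any of 4 libraries was left out (adjusted p up to 0.180, without +/+ effector replicate 1), and the fl/+ call when any of 8 was. Of 8 IKK partners and related kinases 0 rose and 2 fell in +/+, the IKK-related kinase Ikbke (-0.42, SE 0.11, adjusted p = 0.00818) and Map3k8 (-0.998, SE 0.30, adjusted p = 0.0289), which acts below IKK-beta. In fl/+ Ikbke fell by 0.41 (adjusted p = 0.00886), and Map3k8 was called there in the paired fit (-0.71, adjusted p = 0.0322). Ikbke lost the +/+ call without +/+ effector replicate 2 (-0.33, adjusted p = 0.0619) and the fl/+ call without fl/+ resting replicate 1 (-0.36, adjusted p = 0.0580) or fl/+ effector replicate 3 (-0.36, adjusted p = 0.0609) and on both FPKM scales. Map3k8 lost the +/+ call without any of 5 libraries (adjusted p up to 0.135, without +/+ resting replicate 1).

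Of 6 partners of caspase-8 and RIP kinases 0 were called in +/+, fl/+ or fl/fl by the unpaired fit, with changes between -0.33 and 0.39. Of all genes 16%, 16.3% and 6.34% were called there, so 0 of 6 is no result about this list. Cflar, the caspase-8 regulator c-FLIP, was at -0.30 in fl/+ and at -0.34 in fl/fl with adjusted p = 0.0232 and 0.0250 in the paired fit, and was not called without a block (adjusted p = 0.0812 and 0.102). Of 5 RNA-binding substrates of Malt1, Zc3h12d rose by 0.70 in +/+, 0.90 in fl/+ and 0.53 in fl/fl (adjusted p = 0.00236, 0.000315 and 0.0409), and N4bp1 rose by 1.02 in +/+ (adjusted p = 0.00288). The fl/fl call of Zc3h12d was lost without any of 5 libraries (adjusted p up to 0.219, without fl/fl effector replicate 1). With the replicate block, and in DESeq2, N4bp1 (-0.76, adjusted p = 0.0264 with the block) and Zc3h12d (-0.48, adjusted p = 0.0438) were called lower in fl/fl than in +/+ effector cells. The block also called N4bp1 higher in fl/+ effector than resting cells (0.55, adjusted p = 0.0482), and Zc3h12d (-0.39, adjusted p = 0.0243) and Traf2 (-0.25, adjusted p = 0.0354) lower in fl/fl than in +/+ over both states.

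Of 9 genes of the A20 group and other brakes, the deubiquitinase Otud7b rose (0.62 in +/+ and 0.68 in fl/+, adjusted p = 0.0212 and 0.0117) and the ubiquitin ligase Itch fell (-0.39 and -0.37, adjusted p = 0.0384 and 0.0441). The Otud7b call of fl/+ was lost without fl/+ resting replicate 1 (adjusted p = 0.106) and that of +/+ without any of 3 libraries (adjusted p up to 0.129, without +/+ effector replicate 1). The Itch calls were lost when any of 8 libraries (+/+) or 10 libraries (fl/+) was left out and in DESeq2. Tnip2, a partner of A20, was at 0.67 in fl/fl with adjusted p = 0.0548, and was called in 10 of the 28 alternative settings, among them the replicate block (adjusted p = 0.0476) and DESeq2. Of 7 TAK1 partners and ubiquitin-conjugating enzymes Ube2l3, the conjugating enzyme that works with LUBAC, rose by 0.37 in fl/+ (adjusted p = 0.00961), a call lost without fl/+ resting replicate 2 (0.33, adjusted p = 0.0534). None of the 4 tested genes of LUBAC and its regulators was called in any genotype, as for Rbck1. Of all genes 16%, 16.3% and 6.34% were called in +/+, fl/+ and fl/fl. Each of the 8 lists alone is too short to be read against such shares.

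**Figure D5:**
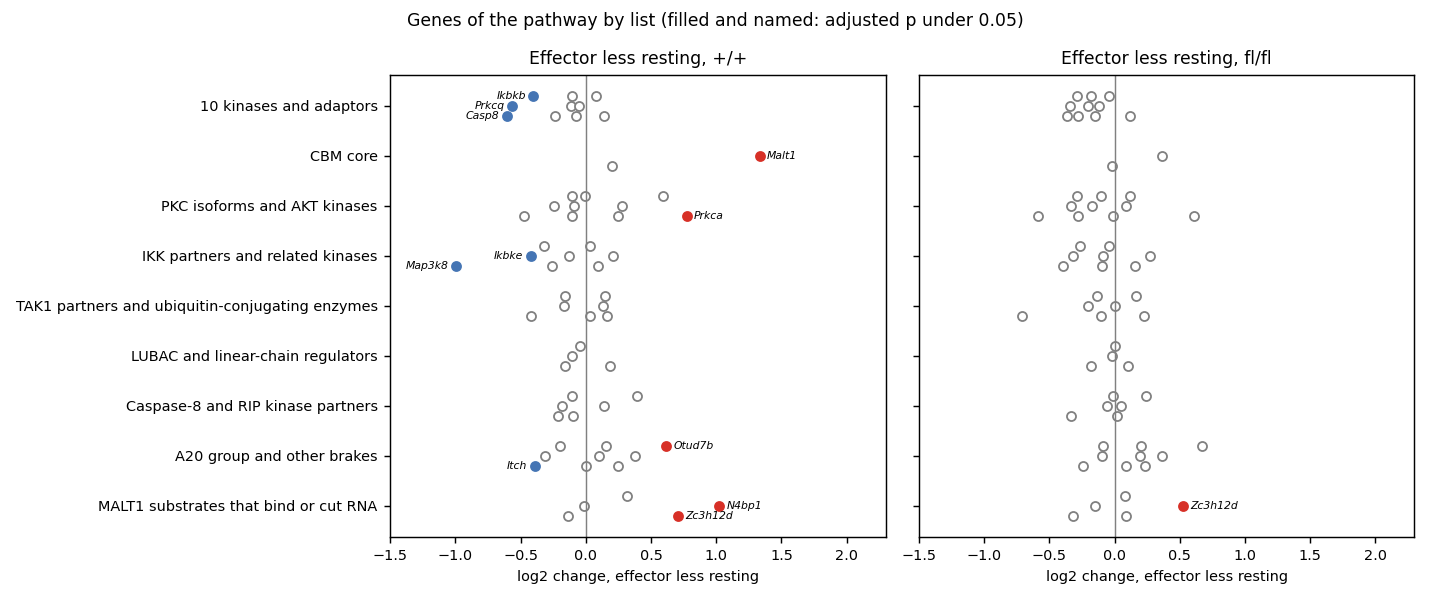
log2 change from resting to effector cells (horizontal axis) of the 10 genes and of the 8 lists (vertical axis) in +/+ and in fl/fl, with filled and named points for an adjusted p under 0.05. In +/+ Malt1 (1.33) lies far right and Map3k8 (-0.998) far left, and in fl/fl Zc3h12d (0.53) is the gene named.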

How the data were processed

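RNA was sequenced from 18 libraries of sorted murine regulatory T cells. The authors' upstream tools, per the submitters' processing notes, were RSEM 1.2.8, STAR 2.6.0, bcl2fastq 2.17.1.14 and build mm10. The sources used here give no annotation, strand setting or filter. The authors deposited expected counts per gene and library, rounded here before fitting (29.4% of nonzero values were not whole), and FPKM values, used for levels between genes and in alternatives.

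In R 4.3.3 with edgeR 4.0.16, genes were filtered with filterByExpr by group, scaled by TMM, and fitted with 6 group means over 18 libraries (common dispersion 0.0215). All 13 contrasts were tested with the quasi-likelihood F test and adjusted over 10630 genes. Data were simulated from mean levels over all 18 libraries, with changes set in the +/+ effector group alone. Among 10630 genes, 26% of 100 changes of 0.5 (log2) and 85% of 100 changes of 1 were recovered. The real +/+ comparison between states called 1700 genes, so these rates need not carry over to it. Intervals use the fit's SE and cover the spread between libraries.

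The labels call the replicate number batch. Residuals of resting and effector libraries with the same genotype and number correlated in 9 of 9 pairs (mean r 0.21, 0.14 to 0.34). They were therefore also fitted as pairs. The main fit, from which calls are given unless another is named, does not use the pairing. Across genotypes the mean was 0.07, with 12 of 36 pairs over 0.1. The number enters 2 fits, as a replicate block over all libraries and a block within genotype, here called the paired fit.

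Alternatives were other scaling, no filter, DESeq2 1.42.0, limma 3.58.1 on counts and on log2(FPKM + 1) or log2(FPKM + 0.1), and leaving out each library. Named genes are the 10, the listed genes of the path that were called in any contrast (those called with a block were added, and Bcl10 was named after its values were seen), and the 3 best correlated genes of each called member. Members and lists were chosen with earlier results of these data known. The targeted gene and some listed genes are not reported here. Promoter windows are from RefSeq (GRCm38.p6) and gene positions from GENCODE M21 (GRCm38).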

Additional observations from a re-analysis of the deposited data

How the results depend on the processing

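Across 28 alternative settings the log2 changes of the 10 genes gave 3570 values. Of these 3550 kept their side of the threshold, 5 lost a call, 15 gained one and 0 reversed a call, while 119 had the other sign with no call in either. The 5 losses were all of Ikbkb in +/+. Besides leaving out replicate 2 of the resting or of the effector +/+ group, they came with log2(FPKM + 1) (-0.33, adjusted p = 0.0681), with log2(FPKM + 0.1) (-0.33, adjusted p = 0.0700) and with the 2 groups fitted alone (-0.39, adjusted p = 0.0664).

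The number of the 10 genes called between states in fl/fl, 0 as described, was 3 with the replicate block within genotype and ran from 0 to 3 when 1 library was left out (1 without +/+ effector replicate 2 and 3 without fl/fl effector replicate 2). The number called between fl/fl and +/+ effector cells, 0 as described, was 1 with no low-count filter and 1 with the replicate block, and ran from 0 to 1 when 1 library was left out. Averaged over both states it also ran from 0 to 1. The cause was not tested. Neither block changed any other call of the 10 genes except that of Traf6.

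For the 16 pathway genes called in any contrast, 5712 values gave 121 losses, 50 gains and 0 reversals. Counts per library, which limit the precision, were lowest for Map3k7 (25 to 112) and Chuk (58 to 219). Ordering by median in place of mean FPKM kept 50 of 60 places.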
